A study of Mus musculus with 20 samples.

Results

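Expression of 5 genes that encode nuclear factors of T cells, Tcf7 (TCF-1), Lef1 (LEF-1), Satb1 (SATB1), Tox (TOX) and Tox2 (TOX2), was followed across 12 groups of sorted mouse CD4 T cells on 20 single-colour Agilent arrays. The genes were chosen by symbol, and every probe that the array annotation gives to one of these symbols was used, 9 of 39429 probes and 5 of 30342 gene symbols. All mice were of the strain B6.Cg-Foxp3<tm1Mal>, in which cells that express Foxp3 fluoresce green, were 8 to 14 weeks old, and each array measured RNA of 1 sorted pool of 8 to 15 mice of both sexes. Cells of peripheral lymph nodes (pLN) came from mice immunised with the protein KLH in alum, and 4 cell types were taken from them on day 12 (d12, 2 arrays per group) and day 25 (d25, 1 array per group), namely naive T cells, follicular helper cells (TFH), regulatory cells (Treg) and follicular regulatory cells (TFR). Cells of Peyer's patches (PP), for which the labels name no immunisation, were Treg, TFR and 2 kinds of TFH cells, either carrying the surface epitope GL7 (GL7+) or lacking it (GL7-), again with 2 arrays per group. Sorting was by Foxp3 reporter, PD1 and GL7: the naive and Treg gates were low for PD1 and lacked GL7, the TFH cells of pLN were high for PD1 and GL7+, and the TFR cells were high for PD1 regardless of GL7. Naive here means this gate and no further marker, and no naive cells of PP were analysed here. PD1 is thus part of the definition of every group.

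TCF-1 and LEF-1 are closely related DNA-binding proteins of the HMG-box class that work with beta-catenin or with Groucho/TLE corepressors, and both act in thymic T-cell development and in the early steps towards TFH cells. SATB1 organises chromatin loops in T cells and is known as a repressor of the gene for PD1. TOX and TOX2 belong to another branch of the HMG-box proteins, TOX being required for CD4 T-cell development and studied in exhausted CD8 T cells, while TOX2 is known to promote the TFH programme.

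Each probe is a 60-base oligonucleotide, so a value reports the transcripts that hold that stretch of the gene. The first 30 bases of the probes that carried the results are given here as printed on the array, with the position of the whole probe in the mouse assembly mm9. The leading probe of a gene, the one with the highest mean over all arrays, is shown for each gene, and the second probe of Tox2 is added because the Tox2 probes differed between tissues.
Tcf7 leading probe, chr11:52066114-52066173, minus strand: ttttttcattctcgctgtagatagcctgaa
Lef1 leading probe, chr3:130907851-130926012 with a gap inside this span of 18162 bases, plus strand: gtacaggtcccagaatgacagctgcctaca
Satb1, its only probe, chr17:51879137-51879196, minus strand: caccggtatttcctaacaacatgagaagtc
Tox leading probe, chr4:6614755-6614814, minus strand: tccaagtcctgttatggataaagctgccaa
Tox2 leading probe, chr2:163101725-163101784, plus strand: gagtaacgaagactatgagattcctcctat
Tox2 second probe, chr2:163148974-163149033, plus strand: ctgtgctgaagacatctgtaagattatttt

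The Tox2 leading probe starts at base 220 of its annotated transcript and the second probe at base 2014 of another. Second probes were also present for Tcf7 (chr11:52066738-52066797), Lef1 (chr3:130926200-130926259) and Tox (chr4:6613551-6613610). All 9 probes passed the filter on dim signal, which asked for detection on both arrays of at least 1 group. The leading probes of Tcf7, Lef1, Satb1 and Tox were detected on all 20 arrays, the Tox2 leading probe on 16 and the Tox2 second probe on 10.

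By Foxp3 itself, the groups carried their labels. Foxp3 had a mean normalised intensity of 16300 to 32500 in the Treg and TFR groups of both tissues, against 27.0 to 158 in naive and TFH groups. Lrrc32, on the same marker list, followed it (11500 to 24900 against 84.8 to 149). Ikzf2 (5990 to 7620 in TFH, 6810 to 7460 in Treg groups) and Ctla4 (6460 to 10200 and 7350 to 14600) did not separate TFH from Treg cells. Il2ra was 15400 to 24100 in Treg groups but 2230 in PP TFR cells. The 20 arrays lay on 5 slides of 4 arrays, each slide holding the groups of 1 tissue and day, and the arrays of slides 1 and 4 received 50 ng of RNA, those of the other slides 40 ng. Slide 4, with replicate 1 of the PP groups, stood apart from slide 5, which held their replicate 2. All 12 B-cell markers listed were detected on the arrays of slide 4, with a summed intensity of 25510 to 177600. On slide 5, 11 or 12 were detected, with sums of 6708 to 15630. Of 8 epithelial markers, 7 or 8 were detected on slide 4, with sums of 12650 to 37140, against 1365 to 2416 on slide 5. PP comparisons were therefore also run without slide 4, and calls that this ended are named beside the result. This leaves 1 array in each PP group, and a call lost there does not by itself mean a smaller difference. Of the pLN arrays, d12 TFH replicate 1 on slide 1 also had all 12 B-cell markers detected. Its sum was 26360, above the lowest array of slide 4, and those of the other pLN arrays were 4965 to 18510. The part of this signal in the TFH comparisons was not tested. Each array was 1 sorted pool, and the replicates of a group also differed in slide and RNA input. Unless slide is named as a block, the fit held no term for slide or input. The p-values therefore measure a spread between arrays in which pool, slide and input are mixed. In sorted bulk RNA fewer cells that express a gene and less RNA per cell cannot be told apart.

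**Figure D1:**
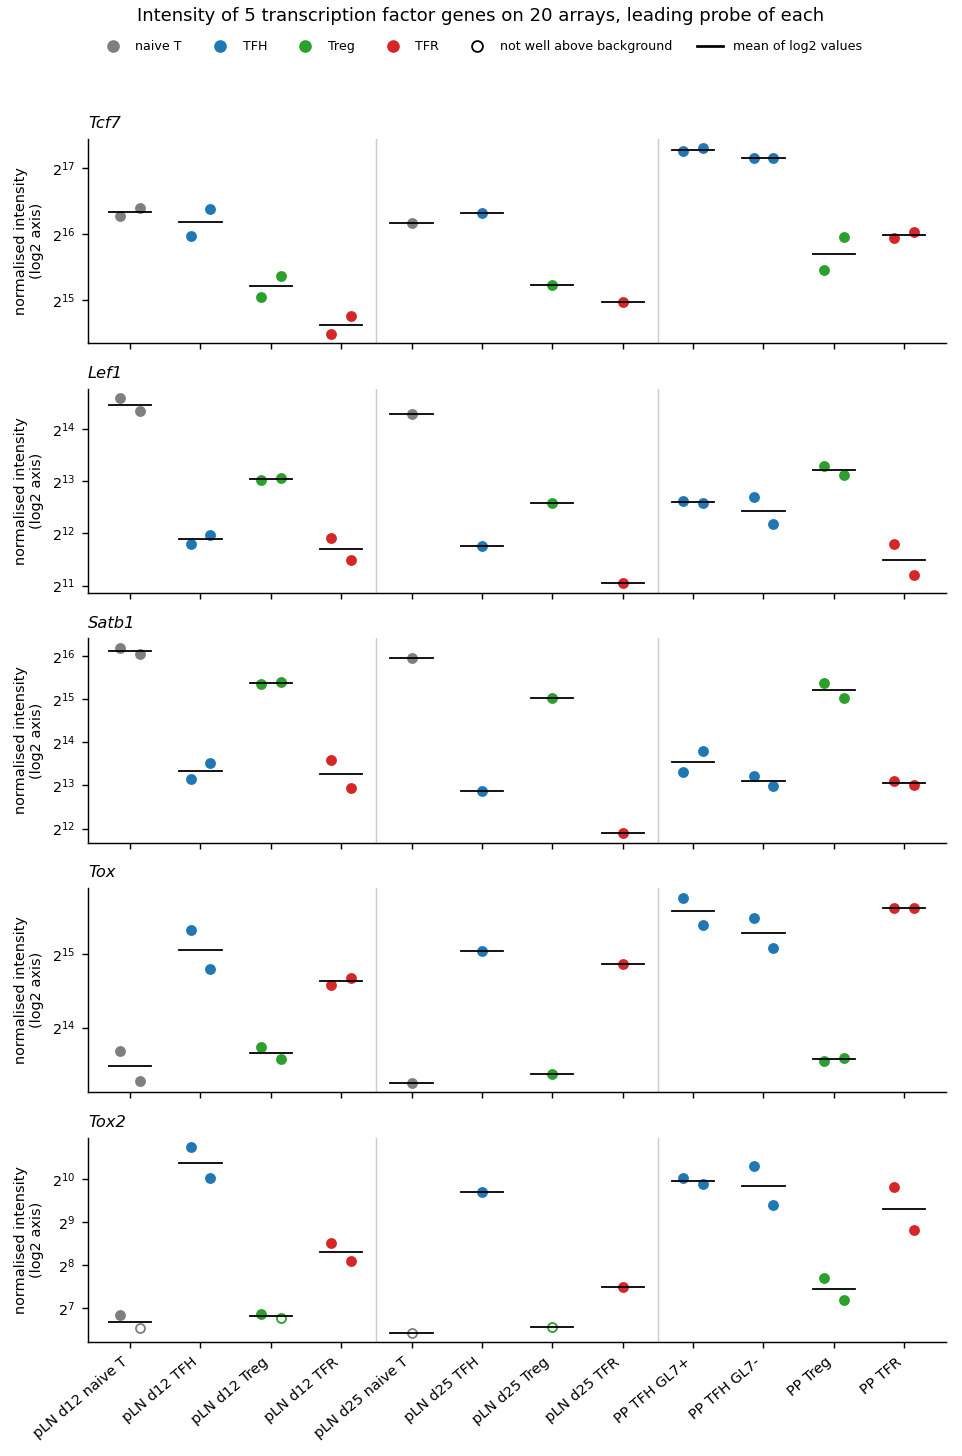
Normalised intensity (log2 axis) of the leading probe of each gene on each of 20 arrays, by group, with points coloured by cell type, open points for arrays where the probe was not well above background, and a black line at the mean of the log2 values of a group. Lef1 and Satb1 were highest in naive cells, Tox and Tox2 were highest in follicular cells, and Tcf7 was highest in PP TFH cells and lowest in pLN TFR cells.

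Tcf7 was brightest in PP TFH cells and lowest in TFR cells of pLN. Its normalised intensity was 156400 and 162100 on the PP TFH GL7+ arrays and 145900 and 146700 on the GL7- arrays. In pLN d12 it was 79550 and 86100 in naive cells, 64500 and 85680 in TFH cells, 33820 and 42400 in Treg cells and 23080 and 27770 in TFR cells. The PP Treg arrays gave 45030 and 63500 and the PP TFR arrays 63180 and 66880. PP TFH arrays thus lay above all others, the naive and TFH arrays of pLN overlapped, and no pLN Treg or TFR array reached any naive or TFH array. At d25 the values were 73780 in naive, 81650 in TFH, 38290 in Treg and 32280 in TFR cells, in the same order of cell types apart from naive and TFH. Of 11 steps between neighbours in the order of the 12 groups, 5 had overlapping arrays.

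Lef1 was highest in naive cells and lower in every other group. Naive cells of pLN d12 gave 24890 and 20810 and those of d25 20040. Treg cells were intermediate, with 8338 and 8537 in pLN d12 and 10120 and 8939 in PP. TFH cells of pLN d12 gave 3567 and 4024 and TFR cells 3872 and 2881, so that these groups overlapped. In PP, TFH GL7+ cells gave 6278 and 6122, GL7- cells 6652 and 4630, and TFR cells 3545 and 2369. The PP TFH GL7+ arrays thus lay above both PP TFR arrays and above all TFH and TFR arrays of pLN, and the lowest array of all was d25 TFR with 2109. Between neighbouring groups in this order, 4 of 11 steps overlapped.

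Satb1 separated follicular from other cells. Its intensity was 74750 and 67180 in pLN d12 naive cells, 41710 and 42790 in pLN d12 Treg cells and 42400 and 33380 in PP Treg cells. On the follicular arrays it was 9109 and 11760 in pLN d12 TFH, 12340 and 7895 in pLN d12 TFR, 10140 and 14140 in PP TFH GL7+, 9494 and 8069 in PP TFH GL7-, and 8846 and 8191 in PP TFR cells. Every follicular array lay below every naive and Treg array, and the follicular groups of d12 and PP overlapped with their neighbours in the order in all but the step to the d25 groups. The d25 arrays gave 63450 in naive, 33110 in Treg, 7513 in TFH and 3801 in TFR cells, the last being the lowest of the 20 arrays.

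Tox showed the opposite arrangement. It stood at 13190 and 9885 in pLN d12 naive cells, 13700 and 12230 in pLN d12 Treg cells and 12010 and 12290 in PP Treg cells, which all overlapped. It was 41020 and 28430 in pLN d12 TFH and 24370 and 26240 in pLN d12 TFR cells. In PP it was 55780 and 43010 in TFH GL7+, 45990 and 34750 in TFH GL7- and 50380 and 50680 in TFR cells. All follicular arrays lay above all naive and Treg arrays, and within pLN d12 both TFR arrays lay below both TFH arrays. At d25 naive and Treg cells gave 9710 and 10610, and TFH and TFR cells 33680 and 29780.

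Tox2 was dim in naive and Treg cells and brightest in TFH cells. By its leading probe, naive cells of pLN d12 gave 113.8 and 92.7 and Treg cells 116.5 and 108.9, with replicate 2 of each not well above background. TFH cells gave 1722 and 1051 and TFR cells 365.7 and 273.7, with no overlap between any of these groups except naive and Treg cells. In PP the values were 1041 and 955.7 in TFH GL7+, 1264 and 680.4 in TFH GL7-, 907.5 and 451.7 in TFR and 209.6 and 146.3 in Treg cells. PP TFR cells thus overlapped with PP TFH GL7- cells and lay above the TFR cells of pLN, while the PP Treg arrays lay above all pLN Treg arrays. At d25 TFH cells gave 835.7 and TFR cells 180.8, and naive (85.55) and Treg cells (93.76) were not well above background.

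The comparison of TFH with naive T cells of pLN d12 asked how the genes stand after follicular helper differentiation. Lef1 was 6.01-fold and Satb1 6.85-fold lower in TFH cells, Tox 2.99-fold and Tox2 13.1-fold higher, and Tcf7 did not pass the test. As log2 differences these were -2.59 ± 0.25 for Lef1 (SE, adjusted p = 5.34e-05, limma), -2.78 ± 0.25 for Satb1 (adjusted p = 4.29e-05), 1.58 ± 0.23 for Tox (adjusted p = 0.000825) and 3.71 ± 0.40 for Tox2 (adjusted p = 0.000108), each with 2 arrays per group. Tcf7 differed by -0.16 on the log2 scale, with a 95% interval of -0.63 to 0.32. For Tox2, naive replicate 2 was not well above background, so the size of its fold is not fully resolved. Its log2 difference ranged from 2.9 to 4.07 under the alternative settings. A call needed an adjusted p under 0.05 and a log2 difference of at least 1, and 4 of 5 genes were called, against 14.7% of the 22264 probes tested. Both slides gave the same directions for the called genes, with -2.80 and -2.37 for Lef1, -3.04 and -2.51 for Satb1, 1.64 and 1.52 for Tox and 3.92 and 3.5 for Tox2. The 5 genes of proliferating cells on the marker list moved as well, with a summed intensity of 1979 and 3050 in naive and 52490 and 45540 in TFH cells, and their part in these differences was not tested. With only the compared groups in the fit, which leaves 2 residual degrees of freedom, the Tox call was lost (1.58, adjusted p = 0.0805, limma). That setting called 6.57% of all probes for TFH against naive cells. Of all 23 calls in the comparisons given here, 18 were lost with it.

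Treg cells of pLN d12 differed from naive cells in Tcf7 and Lef1. Tcf7 was 2.19-fold lower (log2 difference -1.13 ± 0.21, adjusted p = 0.0132, limma) and Lef1 2.70-fold lower (-1.43 ± 0.25, adjusted p = 0.00788). Satb1 was 1.68-fold lower without passing the test (adjusted p = 0.199, interval -1.31 to -0.18), and Tox and Tox2 had intervals of -0.34 to 0.70 and -0.75 to 1.02. These 2 of 5 calls stand against 3.76% of all probes. The Tcf7 call was lost without naive replicate 1 (-1.19, adjusted p = 0.07), naive replicate 2 (-1.07, 0.0878) or Treg replicate 1 (-0.96, 0.148), and the Lef1 call without naive replicate 1 (-1.30, 0.0805) or Treg replicate 1 (-1.41, 0.0733).

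**Figure D2:**
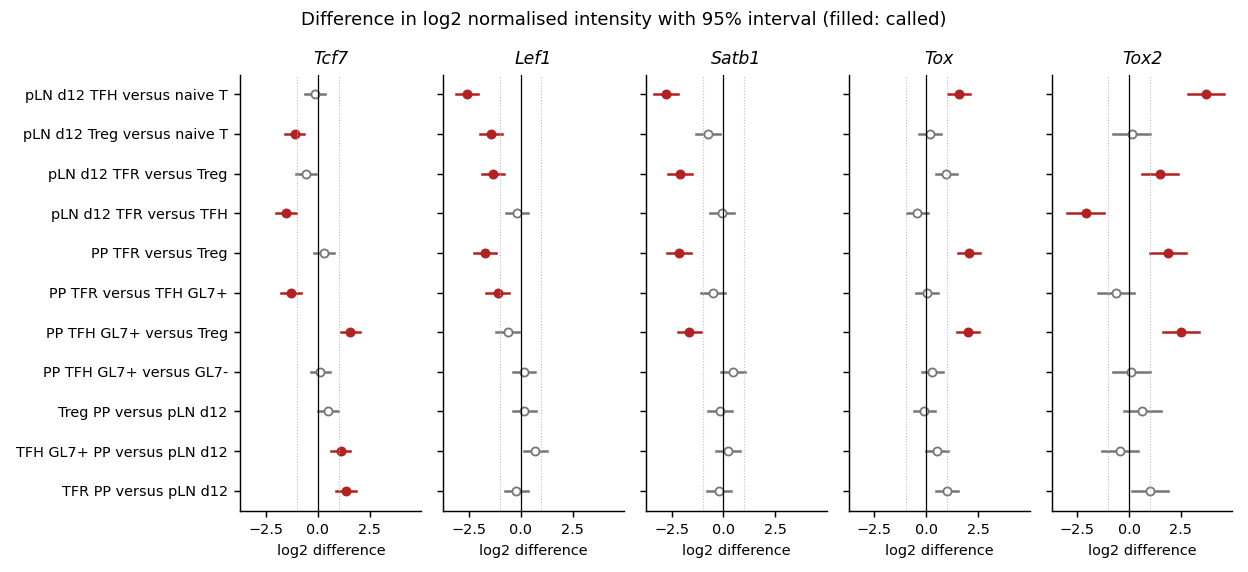
Difference in log2 normalised intensity of the leading probe of each gene in 11 comparisons, with the 95% interval of the limma fit, filled red where called and open grey where not, and dotted lines at the call limit of 1 in each direction. Lef1 and Satb1 lie to the left and Tox and Tox2 to the right where follicular cells are set against naive or Treg cells, while Tcf7 lies near 0 for TFH against naive cells and to the left for TFR against TFH cells.

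TFR cells were next set against the Treg cells of their own tissue. In pLN d12, Satb1 was 4.28-fold lower in TFR cells (log2 difference -2.10 ± 0.25, adjusted p = 0.000785, limma), Lef1 2.53-fold lower (-1.34 ± 0.25, adjusted p = 0.00626) and Tox2 2.81-fold higher (1.49 ± 0.40, adjusted p = 0.0369). Tox was 1.95-fold higher at an adjusted p of 0.0239 but its log2 difference of 0.97 fell short of 1, and Tcf7 was 1.5-fold lower without passing (adjusted p = 0.119, interval -1.05 to -0.11). These 3 of 5 calls compare with 8.35% of all probes. For Tox2, Treg replicate 2 was not well above background, so the size of its fold is not fully resolved. Proliferation markers summed to 14030 and 7705 in the Treg and 99600 and 68710 in the TFR arrays, and their part in these differences was not tested. The Tox2 call was lost without any 1 of the 4 arrays compared (without Treg replicate 1 1.54, Treg replicate 2 1.44, TFR replicate 1 1.28 and TFR replicate 2 1.70) and the Lef1 call without Treg replicate 2 (-1.32, adjusted p = 0.0528) or TFR replicate 2 (-1.12, 0.0598). Tox2 was also not called with percentile scaling alone (1.46, adjusted p = 0.055), without the filter on dim probes (0.0827) or with the normexp background, where its difference was 0.98, while Tox was called with the normexp background (1, adjusted p = 0.0126).

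In PP the same step moved 4 of 5 genes, against 9.25% of all probes. Tox was 4.16-fold higher in TFR than in Treg cells (log2 difference 2.06 ± 0.23, adjusted p = 0.000335, limma) and Tox2 3.66-fold higher (1.87 ± 0.40, adjusted p = 0.0122). Satb1 was 4.42-fold lower (-2.14 ± 0.25, adjusted p = 0.000433) and Lef1 3.28-fold lower (-1.71 ± 0.25, adjusted p = 0.00138). Tcf7 differed by 0.28 with an interval of -0.19 to 0.76. B-cell markers summed to 177600 and 13340 on the TFR arrays and 119200 and 15630 on the Treg arrays, and proliferation markers to 20050 and 14280 against 7237 and 2660. Without slide 4, Lef1 (-1.92), Satb1 (-2.03) and Tox (2.04) were still called and Tox2 was not (1.63). The second probes of Lef1 and Tox2 gave -1.7 and 3.76 there, against -1.63 and 3.96 with all arrays. For both genes the call without slide 4 differed between the probes, with that of Lef1 lost by its second probe. The Tox2 call of the leading probe was also lost without TFR replicate 1 (1.37) or Treg replicate 2 (1.61).

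A test of the difference between these steps in PP and pLN called none of the 5 leading probes (limma), of which 2 had an unadjusted p under 0.05, while it called 0.548% of all probes. The step in Tox was larger in PP by 1.09 on the log2 scale (interval 0.36 to 1.82, adjusted p = 0.27, limma) and that in Tcf7 by 0.86 (interval 0.19 to 1.53, adjusted p = 0.376). With slide as a fixed block, which takes out differences between the slides of a tissue, the Tox difference was called (1.09, adjusted p = 0.0337, limma). The share of all probes called rose to 4.58% in that fit. Without slide 4 the Tox difference was 1.08. For Lef1, Satb1 and Tox2 the intervals of the difference were -1.15 to 0.40, -0.84 to 0.75 and -0.87 to 1.63. The corresponding test in pLN d12, the change from Treg to TFR minus the change from naive to TFH cells, also called no leading probe (limma, 2 with an unadjusted p under 0.05), against 2.18% of all probes. Its largest values were -2.22 for Tox2 (interval -3.47 to -0.97, adjusted p = 0.0881) and 1.25 for Lef1 (interval 0.48 to 2.03, adjusted p = 0.132). Both were called with slide as a fixed block (adjusted p = 0.00371 and 0.0187, limma), which called 6.19% of all probes.

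TFR cells were then set against TFH cells of the same tissue. In pLN d12, Tcf7 was 2.94-fold lower in TFR cells (log2 difference -1.55 ± 0.21, adjusted p = 0.00177, limma) and Tox2 4.25-fold lower (-2.09 ± 0.40, adjusted p = 0.0115). Lef1, Satb1 and Tox did not pass, with intervals of -0.73 to 0.37, -0.63 to 0.50 and -0.95 to 0.09. The share of called probes was 5.01% over the array, and 2 of 5 here. The Tox2 call was lost without TFH replicate 1 (-1.73, adjusted p = 0.115) or TFR replicate 2 (-1.88, 0.0951). TFR replicate 2 was also the array with the highest median local background, 268 against 24 to 78 on the others.

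In PP, whose comparisons share arrays with each other, TFR cells had 2.45-fold less Tcf7 than TFH GL7+ cells (log2 difference -1.29 ± 0.21, adjusted p = 0.0067, limma) and 2.14-fold less Lef1 (-1.10 ± 0.25, adjusted p = 0.0354). Satb1, Tox and Tox2 had intervals of -1.06 to 0.07, -0.47 to 0.56 and -1.52 to 0.24. These 2 of 5 calls stand against 3.44% of all probes. Both calls were lost without slide 4 (Tcf7 -1.28, Lef1 -1.37) and without TFH GL7+ replicate 2 (Tcf7 -1.27, Lef1 -1.12). The second Tcf7 probe gave -1.35 without slide 4, against -1.3 with all arrays, and its call differed there from that of the leading probe. Lef1 was also lost without TFH GL7+ replicate 1 (-1.08), without TFR replicate 2 (-0.81) and without the filter on dim probes (-1.10, adjusted p = 0.0663, limma). Tcf7 was also lost with percentile scaling alone (-1.17, adjusted p = 0.0622, limma).

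TFH GL7+ cells of PP differed from PP Treg cells in 4 of 5 genes, against 9.87% of all probes. Tcf7 was 2.98-fold higher (log2 difference 1.57 ± 0.21, adjusted p = 0.000765, limma), Tox 4.03-fold higher (2.01 ± 0.23, adjusted p = 3e-04) and Tox2 5.70-fold higher (2.51 ± 0.40, adjusted p = 0.00202), while Satb1 was 3.14-fold lower (-1.65 ± 0.25, adjusted p = 0.00166). Lef1 was 1.53-fold lower and did not pass (adjusted p = 0.152, interval -1.17 to -0.07). Without slide 4, Tox (1.81) and Tox2 (2.71) were still called, and Tcf7 (1.35) and Satb1 (-1.24) were not. The second probes of Tcf7 and Tox gave 1.23 and 1.19 there, against 1.47 and 1.48 with all arrays. For both genes the call without slide 4 differed between the probes.

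GL7+ and GL7- TFH cells of PP were compared to ask whether this epitope marks distinct follicular cells. None of the 5 genes was called, and 0.00898% of all probes were. The intervals of the log2 difference were -0.35 to 0.60 for Tcf7, -0.39 to 0.71 for Lef1, -0.11 to 1.02 for Satb1, -0.23 to 0.81 for Tox and -0.78 to 0.99 for Tox2. No unadjusted p of a leading probe was under 0.05, the lowest being 0.104 for Satb1 (limma). The methods' t-test called none, but it called 0 of all 22264 probes and so cannot decide this. Without slide 4, which leaves 1 array per group, the largest difference was 0.81 for Satb1.

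Between tissues, Tcf7 was the gene called by its leading probe. It was 2.14-fold higher in TFH GL7+ cells of PP than in TFH cells of pLN d12 (log2 difference 1.10 ± 0.21, adjusted p = 0.0169, limma) and 2.57-fold higher in TFR cells of PP than of pLN d12 (1.36 ± 0.21, adjusted p = 0.00273). In Treg cells it was 1.41-fold higher without passing (adjusted p = 0.315, interval 0.02 to 0.97). Percentile scaling alone, without quantile normalisation, gave 0.79 for TFH (adjusted p = 0.168) and 0.92 for TFR cells (0.0548), both not called. The TFH call was also lost without slide 4 (1.12), PP TFH GL7+ replicate 1 (1.12), PP TFH GL7+ replicate 2 (1.07) or pLN d12 TFH replicate 1 (0.89). The TFR difference without slide 4 was 1.4 and still called. For TFH cells the second Tcf7 probe gave 1.28 without slide 4, against 1.21 with all arrays, and its call differed there from that of the leading probe. Calls took up 1 of 5 genes in TFH and 1 of 5 in TFR cells, against 4.54% and 11.1% of all probes, and 0 of 5 in Treg cells, against 2.24%, where 1 gene, Tcf7, had an unadjusted p under 0.05 (limma) and none was called without slide 4. Proliferation markers summed to 52490 and 45540 on the pLN d12 TFH arrays and to 9844 and 16490 on the PP TFH GL7+ arrays. In TFR cells they summed to 99600 and 68710 in pLN d12 and to 20050 and 14280 in PP. Their part in the TFH and TFR differences was not tested.

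No other leading probe was called between tissues. Tox was 2-fold higher in TFR cells of PP, with a log2 difference of 0.999 just under the limit (adjusted p = 0.0168, limma), and was called with the authors' values (1.06, adjusted p = 0.0152) and the normexp background (1.03, adjusted p = 0.00929). The second probe of Tox gave 0.41 for the same comparison (adjusted p = 0.457), and without slide 4 the leading probe gave 1 with an adjusted p of 0.094. Tox2 was 2.02-fold higher there without passing (adjusted p = 0.115, interval 0.13 to 1.90). For Lef1 and Satb1 the intervals in TFR cells were -0.75 to 0.34 and -0.78 to 0.35, and in Treg cells -0.38 to 0.72 and -0.73 to 0.40. The Tox2 difference in Treg cells was 0.64, larger than the 0.50 of Tcf7, with an interval of -0.25 to 1.52. In TFH cells Lef1 was 1.64-fold higher in PP (adjusted p = 0.132, interval 0.16 to 1.26). Tissue and slide cannot be told apart, since no slide held both tissues. Nor can tissue and immunisation, which the labels name for the pLN groups alone.

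The second probe of Tox2 gave a different picture of the tissues. Its intensity was 415.2 and 381.8 in PP TFR cells, where it was detected on both arrays, and 61.06 and 54.0 in pLN d12 TFR cells, where it was detected on 1 of 2. These groups did not overlap. With the undetected array set at the lowest signal detected on it, PP TFR cells had at least 5.45-fold more, and the difference was called (adjusted p = 2.67e-05, limma, and 0.00554 without slide 4), where the leading probe gave a log2 difference of 1.02 ± 0.40. In TFH cells it gave 467.3 and 485.8 in PP (GL7+) and 296.3 and 236.3 in pLN d12, a log2 difference of 0.85 (adjusted p = 0.0183), opposite in sign to the leading probe (-0.43, adjusted p = 0.636). In the naive cells of pLN and the Treg cells of both tissues it was not well above background on any array. TFR cells of PP therefore had at least 11.7-fold more than PP Treg cells (adjusted p = 1.98e-06, limma, and 0.00464 without slide 4). No bound is given for TFR against Treg cells of pLN d12, since 1 TFR array was not well above background either. In TFH cells of pLN d12 the bound against naive cells was at least 4.3-fold (adjusted p = 9.1e-07). A bound sets the dim group at the lowest signal detected on its arrays. For this probe the naive arrays of pLN d12 stood at 20 and 21.19 and the Treg arrays at 20 and 20. This is at or near the floor of 20, where replicates cannot spread. These arrays enter the shared estimate of the spread, so the p-values of this probe are not resolved.

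**Figure D3:**
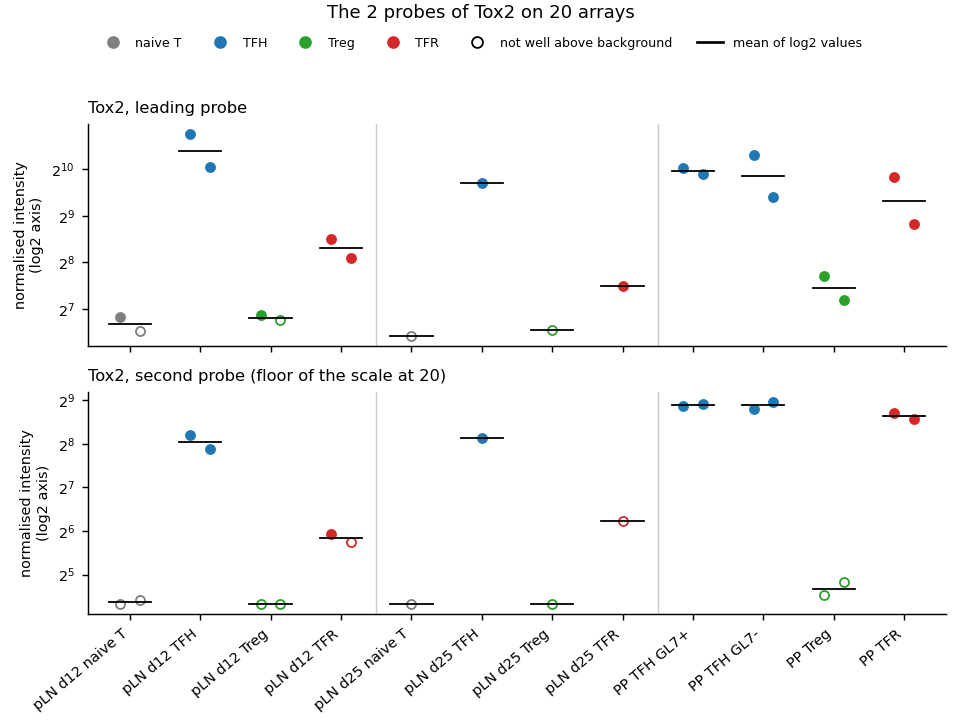
Normalised intensity (log2 axis) of the leading (top) and second (bottom) probe of Tox2 on 20 arrays by group, with open points for arrays not well above background and a black line at the mean of the log2 values. In the lower panel the PP TFR arrays stand with the PP TFH arrays, at 415.2 and 381.8, while the pLN d12 TFR arrays stand at 61.06 and 54.0, a wider gap than in the upper panel.

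Probe pairs of one gene varied alike over all arrays, with the exceptions given here. Over the 20 arrays the log2 values of the probe pairs correlated with r = 0.985 for Tcf7, 0.963 for Lef1, 0.857 for Tox and 0.937 for Tox2, as a description across arrays that share groups. The second probe of Lef1 missed the call for PP TFR against TFH GL7+ cells (log2 difference -1, adjusted p = 0.0988, limma), and that of Tox gave -0.30 where the leading probe gave 0.52 for TFH GL7+ cells of PP against pLN d12, neither called. Probes also differed in how the 50 ng and 40 ng arrays of a group stood to each other. The Tox2 leading probe was brighter on the 50 ng array in 8 of 8 groups, by a median of 0.47 on the log2 scale, and the Tcf7 leading probe and the Tox second probe in 0 of 8, with medians of -0.19 and -0.28. Input and slide cannot be told apart.

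At d25 each cell type had 1 array, so a test was made only of the mean over the 4 cell types against d12. No gene was called (limma), though Lef1 and Satb1 had an unadjusted p under 0.05, against 0.0404% of all probes. The d25 arrays shared 1 slide. When slides entered as a random block, the adjusted p of each gene was 1 and the number of probes with an unadjusted p under 0.05 fell from 2098 to 73. Satb1 had the largest mean difference, -0.59 ± 0.16 on the log2 scale (interval -0.93 to -0.24, unadjusted p = 0.00348, adjusted p = 0.259, limma), and its d25 array lay below both d12 arrays in all 4 cell types, by -0.16 in naive, -0.35 in Treg, -0.46 in TFH and -1.38 in TFR cells. The intervals were -0.21 to 0.37 for Tcf7, -0.69 to -0.02 for Lef1, -0.39 to 0.24 for Tox and -1.05 to 0.04 for Tox2. Day and slide cannot be told apart.

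Over the 12 group means, Lef1 and Satb1 varied together and so did Tox and Tox2, while Tcf7 went with none of them. Pearson's r of the log2 means was 0.929 for Lef1 and Satb1, 0.902 for Tox and Tox2, and -0.864 for Satb1 and Tox. For Tcf7 it was 0.541 with Tox2, 0.389 with Tox, 0.269 with Lef1 and -0.00508 with Satb1. These are descriptions over 12 groups that share cell types, slides and normalisation. Among the leading probes detected on all arrays, the widest range of group means was that of Satb1, 4.22 on the log2 scale from pLN d12 naive to d25 TFR cells, and the narrowest that of Tox, 2.37 from d25 naive to PP TFR cells.

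**Figure D4:**
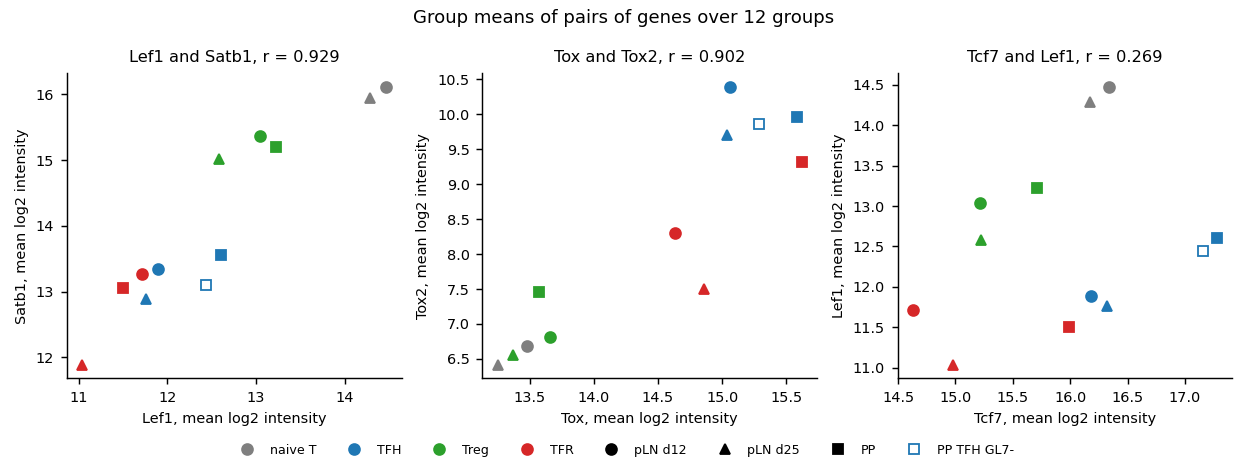
Mean log2 normalised intensity of 2 genes against each other, 1 point per group for 12 groups, coloured by cell type, with circles for pLN d12, triangles for pLN d25, squares for PP and an open square for PP TFH GL7-. Lef1 and Satb1 (r = 0.929) and Tox and Tox2 (r = 0.902) rise together, while Tcf7 and Lef1 (r = 0.269) scatter.

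By the same measure over 12 group means, the genes most like and most opposite to each member were picked from all tested probes with a gene symbol. Extreme values of r follow in part from this choice, and no test was made. Most like Tcf7 were Kansl2 (r = 0.981), Dennd3, Ccdc144b and Gdap2, and least like it were 2900041M22Rik (-0.980) and Plp2. Lef1 was followed by Cryba4 (0.982), Coa8, Rp9 and 4833421G17Rik and opposed by Tmem17 and Gnaq (both -0.975). Satb1 was followed by Prkag1 (0.983), Yrdc, Klf13 and Acot5 and opposed by Arfgap3 and Akr1b10 (both -0.979). Most like Tox were Tfe3 (0.993), Six5, Myh3 and Sh2d1a, which encodes the signalling adaptor SAP of follicular helper cells, and opposite were 1700025G04Rik (-0.992) and Cklf. Most like Tox2 were Il1r1, a receptor for interleukin 1, Mafg (0.991), Rnf157 and Cebpd, and opposite was Tes (-0.988).

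Because Lef1 and Satb1 moved together, the sequence before their start sites was searched for the hexamers CTTTGA and CTTTGT on both strands, the core letters that TCF-1 and LEF-1 are known to bind. The windows ran from 250 bases before to 50 bases after each start in RefSeq (GRCm38.p6). At least 1 hexamer stood in 1 of 4 windows of Lef1, 2 of 5 of Satb1, 2 of 5 of Tox2 and 0 of 2 of Tcf7. Tox had no window in the set that was searched. The 2 windows of Satb1 overlap and hold the same 1 site, and so do the 2 of Tox2. Of all 32851 promoter windows, 31.2% held at least 1 of the hexamers, 16% CTTTGA and 18.7% CTTTGT. The 250 bases before 1 start site of each gene of the pair, chosen because they hold a match, are shown. The hexamers, on either strand, are in capitals.
Lef1, chr3:131156044-131156293, plus strand: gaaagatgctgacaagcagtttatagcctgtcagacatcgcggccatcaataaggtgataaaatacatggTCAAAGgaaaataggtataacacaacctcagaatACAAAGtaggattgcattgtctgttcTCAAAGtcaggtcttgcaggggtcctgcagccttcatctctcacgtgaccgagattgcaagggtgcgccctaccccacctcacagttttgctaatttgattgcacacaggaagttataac
Satb1, chr17:51812055-51812304, minus strand: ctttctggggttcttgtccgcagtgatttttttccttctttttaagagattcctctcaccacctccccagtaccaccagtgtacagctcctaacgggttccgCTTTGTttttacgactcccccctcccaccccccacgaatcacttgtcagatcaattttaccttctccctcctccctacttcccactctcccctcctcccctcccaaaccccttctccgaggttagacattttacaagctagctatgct
The Lef1 stretch holds 3 matches and the Satb1 stretch 1, and a match describes letters only.

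Counts over the following lists are to be read against the share of all probes called, which was 14.7% for TFH against naive cells, 8.35% (pLN d12) and 9.25% (PP) for TFR against Treg cells, and 11.1% for TFR cells between tissues. Among 12 HMG-box and SATB relatives, 10 were tested. In TFH against naive cells of pLN d12, Hmgb3 (log2 difference 1.99) and Hmgb2 (1.88), chromatin proteins of the HMGB family, were higher, Sox4 (-1.49) was lower, and the other 7 were not called, with a list median of -0.32 against -0.09 over all probes. From Treg to TFR cells, Hmgb3 was higher in pLN d12 (1.74) and PP (1.46), Hmgb2 in pLN d12 (1.74), and Tcf7l1, a relative of TCF-1, was lower in both (-1.39 and -2.36), while Sox4 was lower in PP (-2.48). Median differences were -0.20 and -0.25 against -0.08 and -0.05 over all probes. Tox3, a close relative of Tox2, was not detected well enough for testing.

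Of 26 TCF/LEF cofactors and Wnt pathway genes, 22 were tested and at most 2 were called in the comparisons given here, a share of the list below that of all probes for TFH against naive cells. Ctnnbip1, whose product blocks binding of beta-catenin to TCF proteins, was higher in TFH than naive cells (log2 difference 3.14 ± 0.38, adjusted p = 0.000252, limma) and in TFR than Treg cells of PP (1.96 ± 0.38, adjusted p = 0.00786; without slide 4 2.09, adjusted p = 0.147). Bcl9l, a beta-catenin coactivator, was lower in TFH cells (-1.42 ± 0.40, adjusted p = 0.0292). The other 20 were not called in that comparison. The medians were -0.41 for TFH against naive cells and -0.01 for TFR against Treg cells of PP. The frizzled receptor gene Fzd6 was higher in TFR than TFH GL7+ cells of PP (3.62 ± 0.29, adjusted p = 8.82e-05, limma, and 3.9 without slide 4). Against PP Treg cells it was lower in TFH GL7+ cells (-2.93, called) and not called in TFR cells (0.69, adjusted p = 0.175, limma). In pLN d12 it was higher in TFR than Treg cells (1.05, adjusted p = 0.0411, limma).

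All 18 genes listed as regulated by TCF-1, LEF-1, SATB1 or TOX2 in T cells were tested, and 9 were called in TFH against naive cells. Cxcr5 (log2 difference 6.39) and Pdcd1 (6.26), which encodes the PD1 used in sorting, were among 5 that were higher, and Il7r (-4.35) and Ccr7 (-3.70) among 4 that were lower, with a median of 0.27. In TFR against Treg cells of PP 3 were higher and 4 lower (median 0.09), among them Pdcd1 (4.77), Ccr7 (-3.38) and Bcl6 (3.19), and 5 of these 7 were also called without slide 4. In pLN d12 this step had 4 higher, with Pdcd1 (3.23), Myb (1.93) and Cxcr5 (1.80), and 1 lower, Ccr7 (-1.63), with a median of -0.23. In TFR cells of PP against pLN d12, 5 were higher, among them Cxcr5 (2.63) and Bcl6 (2.39), and 5 lower, among them Myb (-2.52), with a median of 0.33 against 0.00 over all probes, and 8 of these 10 were also called without slide 4.

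The 16 Notch and T-lineage factors of the thymus, of which Bcl11b and Gata3 stand on the preceding list too, were all tested. In TFH against naive cells Zeb2 (log2 difference 4.69), Ikzf3 (2.85) and Gfi1 (1.71) were higher, Bcl11b (-1.20) was lower and 12 were not called, with a median of -0.37. From Treg to TFR cells 0 were called in pLN d12 (median -0.31) and 2 in PP, Zeb2 (2.66) and Fli1 (-1.29), with the same median of -0.31, of which Fli1 was not called without slide 4 (-1.32, adjusted p = 0.235). In TFR cells of PP against pLN d12, Gfi1 (1.49) and Ikzf3 (1.43) were higher.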

How the data were processed

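RNA of sorted CD4 T cells was hybridised to 20 single-colour Agilent arrays, each with 4 features per probe. Per the file headers, the deposited scanner files hold intensity values that Agilent Feature Extraction 10.7.3.1 had background-subtracted and detrended, and other columns hold quality marks of 0 or 1 from the same software as deposited. The authors' series table holds intensity values averaged over features, then quantile normalised with the 75th percentile set to 1500 and a floor of 20. These steps were repeated from the scanner files, leaving out flagged or outlying features, since the detection marks are only there; the rebuilt values differed from the authors' by a median of 0.0347 to 0.0362 log2 per array.

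Detection of a probe required 3 or more of its 4 features to be well above background, and the 22264 probes that met this on each of the 2 arrays of some group were tested. Group means of all 12 groups were fitted with limma 3.58.1 in R 4.3.3 (lmFit, eBayes, 8 residual degrees of freedom) with Benjamini-Hochberg adjustment over all tested probes, and a call needed an adjusted p under 0.05 and a log2 difference of at least 1. The fit was tested on simulated data. Samples were grouped by the labels, and replicate numbers, given in order of deposit, coincide with slide and RNA input within pLN d12 and within PP, so slide as a block served as the paired fit. Alternatives were the authors' values, normexp background, percentile scaling alone, no filter on dim probes, slide as a fixed or random block, only the compared groups, each replicate left out, slide 4 left out, the other probes of a gene and, for GL7, the methods' t-test. Symbols of 27508 probes were taken through RefSeq accessions. The 5 genes were named in full, list genes by the largest called differences (up to 4 per list), and the most similar genes by Pearson correlation over 12 group means. The genes and lists were chosen with earlier results of these data known. A few genes that the naming rule selects are not reported here.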

Additional observations from a re-analysis of the deposited data

Results flagged for a closer look

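The second probe of Tox2 gave 2 differences between effects that were called in a test of the difference itself, with most of the arrays behind them not well above background. Its change from Treg to TFR cells in PP exceeded that in pLN d12 by 2.44 ± 0.24 on the log2 scale (SE, adjusted p = 0.00191, limma), and by 2.24 without slide 4, no longer called (adjusted p = 0.0859), where the leading probe gave 0.38 (adjusted p = 1). In pLN d12 its change from Treg to TFR cells was smaller than that from naive to TFH cells, by -2.16 ± 0.24 (adjusted p = 0.00132), where the leading probe gave -2.22 ± 0.56 (adjusted p = 0.0881). The naive arrays of pLN d12 stood at 20 and 21.19 and the Treg arrays at 20 and 20, at or near the floor of 20 where replicates cannot spread, and pLN d12 TFR replicate 2 was not well above background either. Neither the sizes nor the SE and p of these differences are therefore resolved.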

How the results depend on the processing

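Of 23 called differences of the leading probes, 5 were called under every alternative that kept the leading probe and 0 changed sign, and of 47 not called, 17 changed sign under at least 1 such alternative and 42 were called under none. Second probes, which changed further signs and calls, are given apart. Calls lost were 0 with the authors' values, 1 with the normexp background, 4 with 75th percentile scaling alone, 2 without the filter on dim probes, 6 of 12 without slide 4, 9 when single arrays were left out and 18 with only the compared groups in the fit, which has 2 residual degrees of freedom for 4 arrays. With the authors' values and with the normexp background, 2 genes were called for TFR cells of PP against pLN d12, against 11.5% and 8.54% of all probes. With percentile scaling alone, 1 was called for PP TFR against TFH GL7+ cells and 0 for TFH and TFR cells between tissues, and without the dim filter 1 for PP TFR against TFH GL7+ cells. With only the compared groups, 0 were called for pLN d12 Treg against naive and TFR against TFH cells. The same held for PP TFR against Treg and TFH GL7+ cells and for TFH cells between tissues. In these comparisons that setting called 0% of all probes, so the lost calls cannot set these genes apart. It also called 0 for pLN d12 TFR against Treg cells (2.63% of all probes) and for TFR cells between tissues (2.91%). For PP TFH GL7+ against Treg cells it called 2 (3.37%). With slide as a fixed block, which is also the block of replicates, 0 of 21 calls were lost. It called 1 for the Treg to TFR change between tissues, where the share of all probes rose from 0.548% to 4.58%. For the regulatory minus helper change it called 2, where the share rose from 2.18% to 6.19%. Without slide 4, 0 were called for PP TFR against TFH GL7+ cells and for TFH cells between tissues, and 2 for PP TFH GL7+ against Treg cells. With single arrays left out, the genes called ranged from 0 to 2 for Treg against naive cells, from 1 to 2 for pLN d12 TFR against TFH and against Treg cells, from 0 to 1 for TFH cells between tissues and from 0 to 2 for PP TFR against TFH GL7+ cells.

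The sign changed for these differences, none called. With percentile scaling alone they were Satb1 for pLN d12 TFR against TFH cells (0.0367), Tcf7 for PP TFR against Treg cells (-0.038), Tox for PP TFR against TFH GL7+ cells (-0.018), Tcf7 for GL7+ against GL7- cells (-0.0431) and Lef1 for Treg cells between tissues (-0.0278), and without slide 4 Satb1 for the Treg to TFR change (0.0709). By second probes they were Tox2 for Treg against naive cells (-0.0418), Tox for GL7 (-0.141), Tox (-0.303) and Tox2 (0.848) for TFH cells between tissues, and Tcf7 (-0.122), Tox (0.295) and Tox2 (0.107) for d25 against d12, and Tox2 was called by its second probe alone for TFR cells between tissues and for both differences of changes. Leaving out single arrays gave ranges across 0 for TFH against naive cells in Tcf7 (-0.36 to 0.0501), for Treg against naive cells in Tox (-0.0271 to 0.389) and Tox2 (-0.015 to 0.281), for pLN d12 TFR against TFH cells in Lef1 (-0.395 to 0.0316) and Satb1 (-0.39 to 0.254), and for PP TFR against TFH GL7+ cells in Tox (-0.143 to 0.232). They did so for GL7 in Lef1 (-0.102 to 0.421) and Tox2 (-0.342 to 0.552), for Treg cells between tissues in Satb1 (-0.34 to 0.00499), for TFH cells in Satb1 (-0.0299 to 0.451), for TFR cells in Lef1 (-0.496 to 0.086) and Satb1 (-0.536 to 0.109), and for the Treg to TFR change in Satb1 (-0.368 to 0.276) and Tox2 (-0.123 to 0.884). The cause of these changes was not tested. Signal over background limits Tox2, whose leading probe was detected on 16 and second probe on 10 of 20 arrays.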
